A study of Homo sapiens with 2 samples.

Results

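Transcripts of 39 genes for aminoacyl-tRNA synthetases and their scaffold proteins were described among the 21115 genes measured in HCT116, a long-established line of human colorectal cancer cells. The members were taken by gene symbol from a fixed list: 21 synthetases of the cytosol, 16 synthetases of mitochondria, whose symbols end in ARS2, and the scaffold proteins AIMP1 and AIMP2. All 39 symbols were found, each in 1 row. The files use older symbols for several of them, such as WARS for the gene now called WARS1. The groups were cells given CB-5083 at 1 µM and cells given DMSO, the solvent, both for 8 h. The target of CB-5083 is p97, an ATPase (gene VCP) that frees proteins tagged with ubiquitin for degradation. Each group was 1 mRNA library, so no difference has a replicate check and no p-value was computed.

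Aminoacyl-tRNA synthetases join each amino acid to its tRNA, the step that makes the genetic code readable by ribosomes. Cytosolic and mitochondrial protein synthesis use separate sets of these enzymes, nearly all encoded by separate nuclear genes. GARS and KARS are exceptions, since each makes both the cytosolic and the mitochondrial enzyme, and EPRS carries the glutamyl and prolyl activities in a single chain. Several cytosolic enzymes are held in the multisynthetase complex by AIMP1, AIMP2 and EEF1E1. Many genes of the cytosolic set are known targets of ATF4, the transcription factor of the integrated stress response.

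Levels are given in CPM, estimated counts per 1e6 after TMM scaling between the libraries, and the log2 ratio is that of CB-5083 over DMSO after adding 1 CPM to each value. A gene is called higher or lower when this ratio is at least 1 in size, which is 2-fold, and the gene reaches 5 CPM in at least 1 library. The CB-5083 library held 31997724 estimated counts and the DMSO library 29273690. Each fold is given without the added CPM, with a 95% exact interval that covers counting error only, since the reads carry no molecular identifiers and no replicate spread is known. Markers of colon epithelium were present: 7 of 10, among them EPCAM, KRT8 and CDH1, reached 5 CPM in both libraries, CDX2 and CLDN4 did not, and VIL1 was under 1 CPM in both. Of 9 markers of other cell types found, 8 were under 1 CPM in both libraries and COL1A1 was above.

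With CB-5083, cytosolic synthetase transcripts were higher as a set and mitochondrial ones were not. Of 21 cytosolic synthetases 9 were higher and none lower, whereas of 16 mitochondrial ones none was higher and none lower, and neither AIMP1 nor AIMP2 passed 2-fold. By the same rule 7.22% of the 9543 genes that reached 5 CPM were higher and 4.91% lower. In bulk RNA such as this, fewer cells of a state and less RNA per cell cannot be told apart. Of the members, 36 reached that level; the other 3 were the mitochondrial enzymes SARS2, TARS2 and VARS2, which the rule could not call. The median log2 ratio was 0.85 for the cytosolic enzymes and -0.10 for the mitochondrial ones, a difference of 0.94, beside 0.04 for all genes with a mean of at least 1 CPM. Scaling by library totals in place of TMM moved the median of all genes by -0.31 and left 6 of 21 cytosolic enzymes higher and 2 of 16 mitochondrial ones lower, where 3.86% of all genes were higher and 10.3% lower.

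Shares of the library are the same measure as scaling by library totals, under which the median log2 ratio of all genes was -0.27. Cytosolic synthetases together took 0.751% of the estimated counts with CB-5083 (95% exact interval 0.748 to 0.754) and 0.469% with DMSO (0.466 to 0.471). The mitochondrial enzymes took 0.0626% with CB-5083 (0.0617 to 0.0634) and 0.0831% with DMSO (0.0820 to 0.0841). The share of the cytosolic enzymes was larger and that of the mitochondrial enzymes smaller in the CB-5083 library. With TMM the summed level of the cytosolic enzymes was 8452 CPM with CB-5083 and 4162 CPM with DMSO (2.03-fold), and that of the mitochondrial ones 704 CPM with CB-5083 and 738 CPM with DMSO (0.955-fold). Both scaffold genes together took 0.0196% with CB-5083 and 0.0191% with DMSO.

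**Figure D1:**
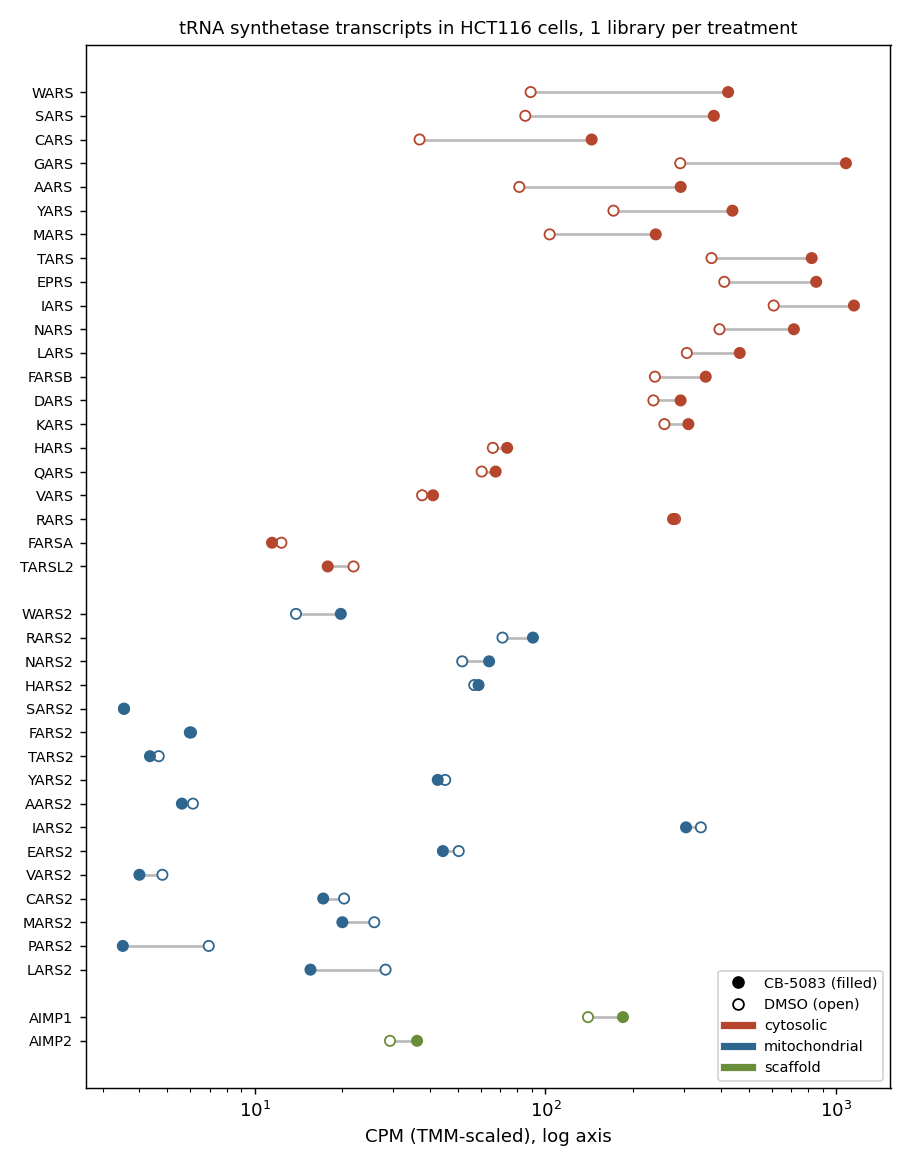
Level of each member in CPM (log axis) in the CB-5083 library (filled circles) and the DMSO library (open circles), 1 library each, grouped as cytosolic, mitochondrial and scaffold genes and ordered by ratio. The gap between the circles is widest for WARS, SARS and CARS, and in 11 of 16 mitochondrial genes the filled circle lies left of the open one.

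**Figure D2:**
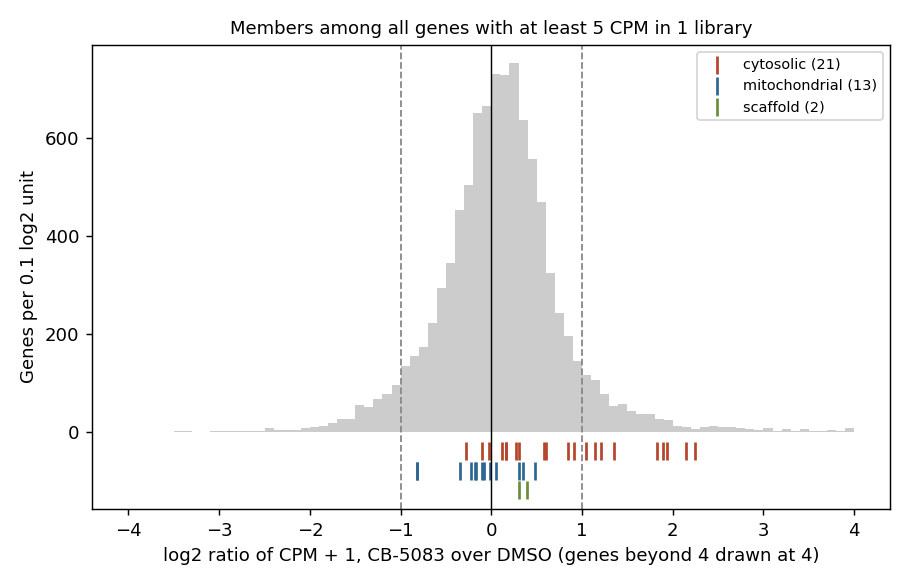
Number of genes (bars) by log2 ratio of CB-5083 over DMSO for the 9543 genes with at least 5 CPM in 1 library, with the members of each class as ticks below and the 2-fold thresholds as dashed lines. Ticks of 9 cytosolic enzymes lie right of the upper threshold, and no tick lies left of the lower one.

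WARS and SARS, for tryptophan and serine, were the only members past 4-fold. WARS (hg19 chromosome 14, 100800125 to 100842680) was at 425 CPM with CB-5083 and 88.9 CPM with DMSO, 4.78-fold higher (4.59 to 4.98). SARS (chromosome 1, 109756515 to 109780804) was at 379 CPM with CB-5083 and 85.2 CPM with DMSO, 4.45-fold higher (4.27 to 4.64). Of all genes with at least 5 CPM, 99.05% had a lower ratio than WARS and 98.9% a lower one than SARS. Cysteinyl, glycyl and alanyl enzymes came next in order. CARS, on chromosome 11 from 3022152 to 3078681, was at 144 CPM with CB-5083 and 36.9 CPM with DMSO (3.91-fold, 3.66 to 4.17). GARS, on chromosome 7 from 30634181 to 30673648, was at 1080.1 CPM with CB-5083 and 291 CPM with DMSO (3.71-fold, 3.63 to 3.80). It serves cytosol and mitochondria from a single gene. AARS, on chromosome 16 from 70286297 to 70323412, was at 292 CPM with CB-5083 and 81.3 CPM with DMSO (3.59-fold, 3.44 to 3.75).

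The other 4 members past the threshold lay between 2-fold and 2.6-fold. YARS, the tyrosyl enzyme, on chromosome 1 from 33240840 to 33283633, was at 440 CPM with CB-5083 and 171 CPM with DMSO (2.57-fold, 2.49 to 2.65). MARS, the methionyl enzyme, on chromosome 12 from 57881077 to 57911334, was at 239.5 CPM with CB-5083 and 103 CPM with DMSO (2.32-fold, 2.22 to 2.41). TARS, which serves threonine, on chromosome 5 from 33440898 to 33468196, was at 824 CPM with CB-5083 and 373 CPM with DMSO (2.21-fold, 2.16 to 2.26). EPRS, on chromosome 1 from 220141942 to 220220000, was nearest above the threshold, at 853 CPM with CB-5083 and 412 CPM with DMSO (2.07-fold, 2.03 to 2.11). Calls of MARS, TARS and EPRS rest on the scaling: their log2 ratios were 0.86, 0.80 and 0.71 with library totals, and that of EPRS was 0.95 with upper quartile scaling and 0.96 in the authors' deposited table.

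IARS, for isoleucine, lay nearest below the threshold and had the highest CPM of all members, 1151 with CB-5083 and 609 with DMSO (1.89-fold, 1.86 to 1.92). NARS, for asparagine, was at 715 CPM with CB-5083 and 397 CPM with DMSO (1.80-fold, 1.76 to 1.84). LARS and FARSB, the leucyl enzyme and the beta subunit of the phenylalanyl enzyme, were 1.52-fold (1.48 to 1.56) and 1.495-fold (1.45 to 1.54) higher, short of the threshold. The remaining 8 cytosolic enzymes, those for aspartate, lysine, histidine, glutamine, valine and arginine with FARSA and TARSL2, had log2 ratios between -0.28 and 0.31. With library totals all 8 were below 0, DARS at -0.03, KARS at -0.07, HARS and QARS at -0.18 and VARS at -0.21 among them. RARS, the arginyl enzyme, was at 275 CPM with CB-5083 and 279 CPM with DMSO, and its interval included no difference (0.984-fold, 0.955 to 1.01). FARSA, the alpha subunit that carries the phenylalanyl active site, was at 11.5 CPM with CB-5083 and 12.3 CPM with DMSO (0.929-fold, 0.800 to 1.08). TARSL2, a threonyl enzyme related to TARS, had the lowest cytosolic ratio, at 17.8 CPM with CB-5083 and 21.9 CPM with DMSO (0.815-fold, 0.726 to 0.914). VARS, the valyl enzyme, was at 41.1 CPM with CB-5083 and 37.7 CPM with DMSO. The files list VARS, like its mitochondrial counterpart, on several haplotypes of chromosome 6, and the sources used here do not say how reads were divided among these copies.

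**Figure D3:**
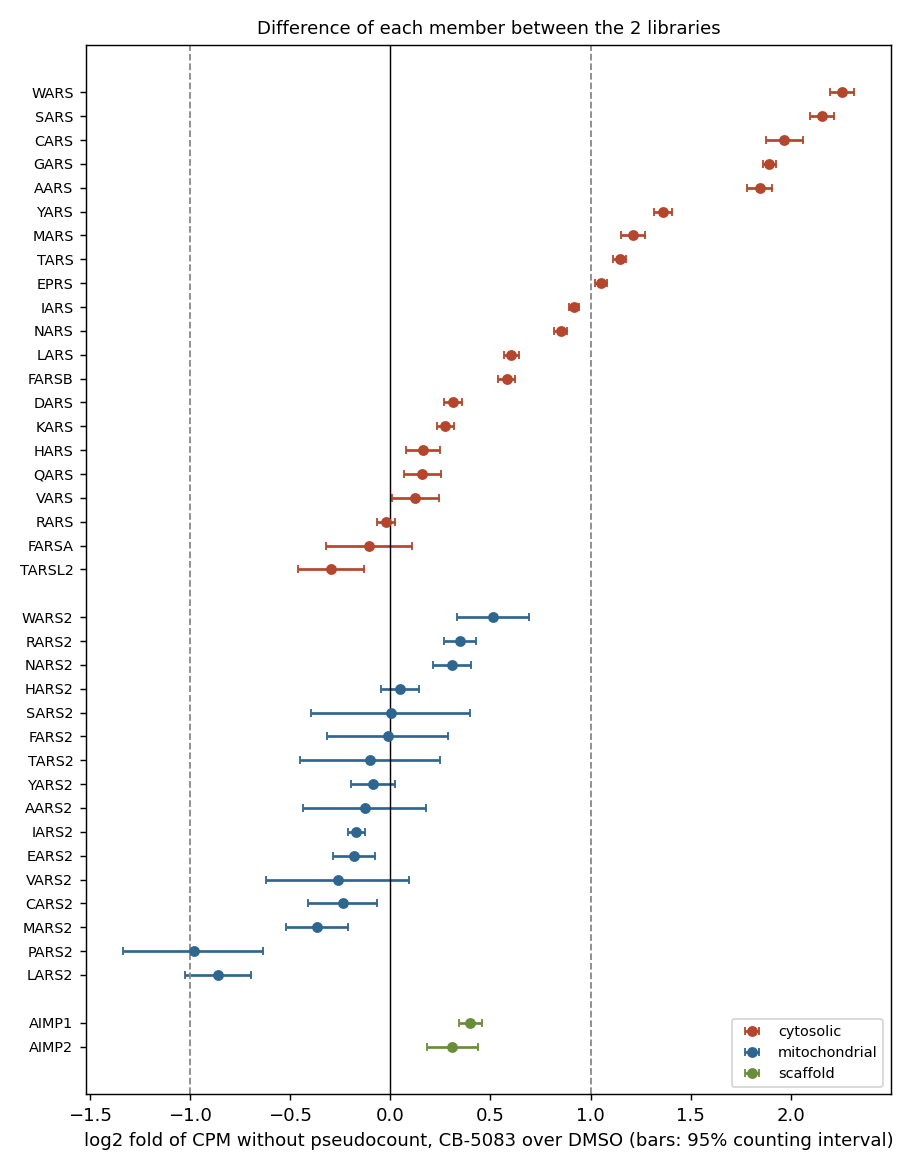
Log2 fold of each member, CB-5083 over DMSO, computed from CPM without the added 1 CPM, with bars for the 95% counting interval and dashed lines at 2-fold. Cytosolic enzymes spread from WARS at the right to TARSL2, while the mitochondrial ones lie around and left of 0, with PARS2 and LARS2 lowest.

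Promoter sequence was examined for an element bound by ATF4, which binds DNA as a dimer with C/EBP proteins. ATF4 itself was at 498 CPM with CB-5083 and 237 CPM with DMSO (2.10-fold, 2.04 to 2.16). Its log2 ratio was 0.73 with library totals. Whether ATF4 had a part in the ratios of the members was not tested, and its protein was not measured. Promoters were those of RefSeq (GRCh38.p14), from 250 bases before to 50 bases after each start, and 32 of the 39 members had at least 1. The letters searched, on either strand, were TGATGCAA, an element of C/EBP with ATF4, and TGATGNAA, which includes every TGATGCAA. TGATGCAA was found in 6 of 16 cytosolic genes with a promoter, in none of 14 mitochondrial genes and in neither scaffold gene. It occurred in 1.08% of the 27305 genes of the table and in 3.05% of the 525 genes called higher that had a promoter. TGATGNAA was found in 7 of 16 cytosolic genes and 1 of 14 mitochondrial ones, against 4.46% of all genes and 7.43% of those called higher. Among genes that reached 5 CPM and had a promoter, 0.771% held TGATGCAA and 2.7% TGATGNAA. By promoters of the table, 0.866% hold TGATGCAA and 3.62% TGATGNAA. The windows of 30 bases around these matches are shown because all but 1 of the matches were in cytosolic enzymes, with the match in capitals. A match describes letters and is not a binding site. Each is written along the gene's own strand, so a match on the opposite strand reads as TTGCATCA or TTTCATCA.
AARS, chr16:70289675-70289704, minus strand: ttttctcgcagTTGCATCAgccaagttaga
CARS, chr11:3057407-3057436, minus strand: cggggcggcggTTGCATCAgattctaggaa
GARS, chr7:30594834-30594863, plus strand: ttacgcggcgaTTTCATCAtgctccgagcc
IARS, chr9:92293692-92293721, minus strand: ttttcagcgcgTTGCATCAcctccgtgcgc
MARS, chr12:57488053-57488082, plus strand: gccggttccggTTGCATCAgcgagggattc
NARS, chr18:57621804-57621833, minus strand: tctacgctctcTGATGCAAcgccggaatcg
TARS, chr5:33440956-33440985, plus strand: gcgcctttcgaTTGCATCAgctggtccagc
YARS2, chr12:32756076-32756105, minus strand: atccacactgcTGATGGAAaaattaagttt

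In IARS, MARS, CARS, TARS and NARS the match lay close to an annotated start. It began 13 bases before the start in IARS, 4 in MARS and 2 in CARS, and at base 3 after it in TARS and base 15 in NARS. In GARS it began 33 bases before the start, in AARS 187 and in YARS2 197. CARS, TARS and GARS each have 2 promoters, of which 1 holds the match. The 7 cytosolic genes with a match had log2 ratios between 0.85 and 1.94, with a median of 1.204. Of these 7, 5 were past 2-fold, beside 7.22% of all genes that reached 5 CPM that were higher. IARS and NARS, the other two, were the pair just below the threshold. The 9 cytosolic genes with a promoter but no match ranged from -0.10 to 2.24, with a median of 0.27. Among these 9, EPRS was past 2-fold, as were WARS and SARS, the members with the highest ratios. YARS2, with a match to TGATGNAA, had a log2 ratio of -0.08. No promoter from the table was available for DARS, LARS, TARSL2, VARS, YARS, AARS2 and VARS2.

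The cytosolic enzymes were also counted by membership of the multisynthetase complex, with no test of the difference. Of its 8 enzymes 2 were higher, MARS and EPRS, with a median log2 ratio of 0.46, while 7 of the 13 outside it were higher, with a median of 1.14. Among all genes that reached 5 CPM 7.22% were higher. Under library totals the counts were 0 of 8 and 6 of 13, where 3.86% of all genes were higher. The summed level of the complex's enzymes was 3654 CPM with CB-5083 and 2262 CPM with DMSO, and that of the enzymes outside it 4799 CPM with CB-5083 and 1900 CPM with DMSO (2.53-fold). AIMP1 was at 185 CPM with CB-5083 and 140 CPM with DMSO (1.32-fold, 1.27 to 1.37). AIMP2 was at 36.2 CPM with CB-5083 and 29.2 CPM with DMSO (1.24-fold, 1.13 to 1.35). EEF1E1, the complex's other scaffold protein, stood at 158 CPM with CB-5083 and 121 CPM with DMSO (1.30-fold). All 3 scaffold genes were thus slightly higher on this scale and within 2-fold. With library totals their log2 ratios were near 0: AIMP1 at 0.06, EEF1E1 at 0.04 and AIMP2 at -0.03.

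Synthetases also fall into a pair of structural classes with unrelated catalytic folds. Of 9 cytosolic enzymes of class I 4 were higher, with a median log2 ratio of 0.92, and of 11 gene products of class II 4 were higher, with a median of 0.58. EPRS, whose glutamyl part is of class I and whose prolyl part is of class II, was left out of both. Among all genes that reached 5 CPM 7.22% were higher. With library totals 3 of 9 and 3 of 11 were higher, with medians of 0.57 and 0.24, beside 3.86% of all genes. Each class held members near the top of the order, WARS and CARS in class I and SARS, GARS and AARS in class II, and members near 0, RARS in class I and FARSA in class II.

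Mitochondrial synthetases lay within 2-fold throughout, and 11 of 16 had a log2 ratio below 0, as did 5664 of all 11964 genes with a mean of at least 1 CPM and 42.6% of those that reached 5 CPM. LARS2, the mitochondrial leucyl enzyme, on chromosome 3 from 45430075 to 45590328, was at 15.6 CPM with CB-5083 and 28.2 CPM with DMSO (1.81-fold lower, 1.62 to 2.03). PARS2, the prolyl enzyme, on chromosome 1 from 55222571 to 55230226, was at 3.52 CPM with CB-5083 and 6.95 CPM with DMSO (1.97-fold lower, 1.55 to 2.52), a fold that rests on 100 and 229 estimated counts. These were the members nearest the lower threshold. Which was lower depended on the added CPM: the log2 ratio was -0.82 for LARS2 and -0.81 for PARS2 with 1 CPM added, while PARS2 was the lower by fold, at a pseudocount of 0.1 (-0.96 against -0.85) and in the authors' deposited table. Both passed the threshold with library totals, LARS2 at -1.14 and PARS2 at -1.10. PARS2 also did in the authors' deposited table, at -1.07. MARS2, for methionine, was the next lowest, at 20.02 CPM with CB-5083 and 25.8 CPM with DMSO (1.29-fold lower, 1.16 to 1.43).

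At the other end, WARS2 had the highest mitochondrial ratio, at 19.8 CPM with CB-5083 and 13.9 CPM with DMSO (1.43-fold, 1.26 to 1.62). RARS2, for arginine, was at 90.6 CPM with CB-5083 and 71.2 CPM with DMSO (1.27-fold, 1.203 to 1.35). NARS2, for asparagine, was at 64.0 CPM with CB-5083 and 51.7 CPM with DMSO (1.24-fold, 1.16 to 1.32). With library totals the log2 ratio of NARS2 turned to -0.03 and that of RARS2 was 0.01, and 14 of the 16 enzymes were below 0, as were 8506 of the 11964 genes. IARS2 was the most expressed mitochondrial enzyme, at 304 CPM with CB-5083 and 342 CPM with DMSO (1.12-fold lower, 1.09 to 1.16). For 7 of the 16 enzymes (AARS2, FARS2, HARS2, SARS2, TARS2, VARS2 and YARS2) the counting interval included no difference, and 5 of these 7 had at most 202 estimated counts in either library. SARS2, with 101 estimated counts with CB-5083 and 117 with DMSO, had a fold of 1.001 and an interval of 0.759 to 1.32, so a difference smaller than these bounds was not detectable at this depth.

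Setting a cytosolic enzyme against the mitochondrial one for the same amino acid removes the scaling between libraries. TARSL2 was not set against TARS2, though its log2 ratio, -0.28, was below the -0.08 of TARS2. The fold of the cytosolic enzyme was larger in 15 of 17 pairs, with a median ratio of folds of 2.37, and it was over 2 times that of the mitochondrial enzyme in 11 pairs. In 14 pairs the counting interval lay above 1. The pairs are not independent, since EPRS and FARS2 stand in 2 pairs each. CARS to CARS2, for cysteine, had the largest ratio of folds: CARS had 8.38 times the estimated counts of CARS2 with CB-5083 and 1.82 times with DMSO, a ratio of 4.61 (95% counting interval on the log scale 4.04 to 5.27). SARS to SARS2, for serine, followed at 4.45 (3.40 to 5.82), then EPRS to PARS2, for proline, at 4.09 (3.23 to 5.18), and AARS to AARS2, for alanine, at 3.92 (3.17 to 4.84). For tryptophan, where both members of the pair had the highest ratio of their class, the ratio of folds was 3.35 (2.94 to 3.81). For leucine it was 2.76 (2.45 to 3.10), made up of a cytosolic enzyme that was 1.52-fold higher and a mitochondrial one that was 1.81-fold lower.

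Arginine was the exception with an interval below 1: RARS had 3.03 times the estimated counts of RARS2 with CB-5083 and 3.92 times with DMSO, a ratio of folds of 0.773 (0.726 to 0.824). FARSA to FARS2 gave 0.938 (0.729 to 1.21), while FARSB, the other subunit of the same cytosolic enzyme, gave 1.51 (1.23 to 1.86) against FARS2. Histidine gave 1.08 (0.990 to 1.18). HARS and HARS2 are neighbours on chromosome 5, with HARS from 140053490 to 140070971 and HARS2 from 140071018 to 140078890 in hg19, on opposite strands and 46 bases apart. HARS was at 73.8 CPM with CB-5083 and 65.9 CPM with DMSO, and HARS2 at 58.9 CPM with CB-5083 and 56.9 CPM with DMSO. The members of this pair thus differed little between treatments and from each other.

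**Figure D4:**
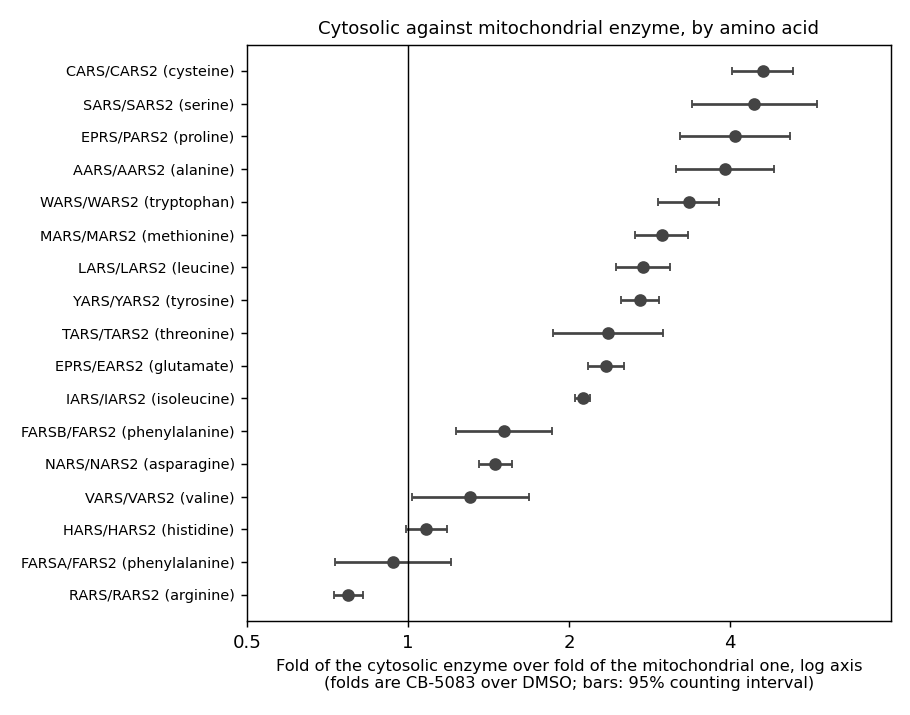
For each of 17 pairs, the fold (CB-5083 over DMSO) of the cytosolic enzyme divided by that of the mitochondrial enzyme for the same amino acid, on a log axis, with bars for the 95% counting interval. Of the 17 points 15 lie right of 1, from HARS to HARS2 at 1.08 up to CARS to CARS2 at 4.61, and the interval for arginine lies left of it.

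Between genes, levels were compared per kilobase of transcript, with lengths from GENCODE 29 transcripts that carry the files' RefSeq accessions. The cytosolic enzymes had a median level of 124 CPM per kb with CB-5083 and 52.9 CPM per kb with DMSO, and the mitochondrial ones 6.84 CPM per kb with CB-5083 and 7.62 CPM per kb with DMSO. GARS had the highest level per length with CB-5083, 410 CPM per kb, against 110.4 CPM per kb with DMSO, while IARS had the highest with DMSO, 130.9 CPM per kb, against 247 CPM per kb with CB-5083. IARS2 was the highest of the mitochondrial enzymes, at 85.5 CPM per kb with CB-5083 and 96.2 CPM per kb with DMSO. FARSA and FARSB, whose products pair in a single enzyme, differed in level: FARSA was at 6.32 CPM per kb with CB-5083 and 6.81 CPM per kb with DMSO, and FARSB at 106 CPM per kb with CB-5083 and 70.6 CPM per kb with DMSO. The transcript of FARSA is 61.4% G and C and that of FARSB 41.6%.

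GC content moved with the ratio over all genes. Among genes with at least 5 CPM the median log2 ratio was 0.19 in the fifth of lowest GC content and -0.04 in the fifth of highest. Median GC content was 48.6% in the cytosolic set and 51.7% in the mitochondrial set. Subtracting the median ratio of genes of like GC content, an alternative chosen after seeing the data, left medians of 0.74 for the cytosolic enzymes and -0.12 for the mitochondrial ones, and 8 and 0 members past 2-fold. The part of GC content in the ratios was not tested further.

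Other lists of tRNA biology each held 1 gene past the threshold, beside the 7.22% higher and 4.91% lower among all genes. Of 24 measured genes of tRNA processing and export 1 was higher and none lower, with a median log2 ratio of 0.05. That gene was XPOT, the exporter of tRNA from the nucleus, at 638 CPM with CB-5083 and 275 CPM with DMSO (2.32-fold, 2.26 to 2.38; log2 ratio 0.87 with library totals). Of 37 measured tRNA modification genes 1 was higher, MTO1, which modifies mitochondrial tRNAs, at 104.9 CPM with CB-5083 and 47.1 CPM with DMSO (2.23-fold, 2.10 to 2.37; log2 ratio 0.80 with library totals). Among 9 measured genes of tRNA editing and selenocysteine SEPHS2, a selenophosphate synthetase, was higher, at 132 CPM with CB-5083 and 46.7 CPM with DMSO (2.83-fold, 2.66 to 2.9996). Of 21 measured genes of RNA polymerase III and its factors, which transcribe tRNA genes, POLR3C was higher, at 65.3 CPM with CB-5083 and 24.6 CPM with DMSO (2.66-fold, 2.45 to 2.89). None was lower in any of these lists by this rule. Without the added CPM, KIAA0391 was 2.02-fold lower, GTPBP3 2.08-fold lower and TSEN15 2.01-fold higher. BRF1, which did not reach 5 CPM, was 2.08-fold lower. With library totals, where 3.86% of all genes were higher and 10.3% lower, SEPHS2 and POLR3C remained higher. In the lists of tRNA processing and modification, those lower by that scaling were KIAA0391 (-1.33), RG9MTD1 (-1.05) and GTPBP3 (-1.27), each given by its log2 ratio.

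Translation factors were counted in the same way, against the same shares of all genes. None of 9 cytosolic elongation genes and none of 14 mitochondrial translation factors passed the threshold, with median log2 ratios of 0.29 and 0.23, which turned to -0.04 and -0.10 with library totals. By that scaling 1 elongation gene, EIF5A2, was lower, at a log2 ratio of -1.095. EEF1A1, which delivers charged tRNA to the cytosolic ribosome, was at 18235 CPM with CB-5083 and 10417 CPM with DMSO (1.75-fold, 1.74 to 1.76).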

How the data were processed

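mRNA of HCT116 cells was sequenced from 1 CB-5083 and 1 DMSO library, made with a stranded kit per the labels' protocols. RSEM 1.2.0 and hg19 are named in the submitters' processing notes, and no aligner is given in the sources. Each gene's deposited signal is an RSEM estimate scaled by library, with the 75th percentile over all genes at 999.9 with CB-5083 and 999.7 with DMSO. Dividing by the step between the lowest values, 1.1752 with CB-5083 and 1.079 with DMSO, gave back estimated counts, of which 77.1% and 76.6% of those up to 5 were whole within 0.02. The authors' deposited log2 ratio is that of these values, with no pseudocount.

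CPM used TMM factors of 0.8883 and 1.1258 (trims of 30% and 5%). Of 21116 rows 1 held no value and was left out. A list's median covers members with a mean of at least 1 CPM. Coordinates are the files' own (hg19, starts counted from 1), and promoters are RefSeq's (GRCh38.p14). A value of 0 allows up to 3 counts, 0.106 CPM with CB-5083 and 0.0910 CPM with DMSO. Exact intervals are Clopper-Pearson. Members and lists were chosen with earlier results of these data known. Every member could be named, and of the related lists those past 2-fold. EEF1A1, EEF1E1, TSEN15, BRF1, the genes lower only with library totals and the marker genes were named after their values were seen. On data simulated for CB-5083 against DMSO over 21115 genes, with counting error only, all 100 genes altered 4-fold and 0 of 100 altered 1.5-fold were called. The altered genes were drawn only from genes above a level that members such as SARS2 and PARS2 did not reach. Given the 2-fold threshold, both counts followed from the size of the alterations, so the run checked the calculation only. Alternatives were the scaling, pseudocount, filter, fold threshold, source of the ratio, list membership, pairs used and GC content. Computation used scipy 1.17.1, pandas 2.3.3 and numpy 2.4.6 in Python 3.11.15, and figures matplotlib 3.10.9.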

Additional observations from a re-analysis of the deposited data

How the results depend on the processing

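The direction of both class medians and of their difference held under every alternative run, and the difference ran from 0.85 to 0.98. With library totals the median log2 ratio was 0.51 for the cytosolic and -0.41 for the mitochondrial enzymes, with 2 mitochondrial members lower, against none in the values reported. The cytosolic median was 0.75 with upper quartile scaling and 0.76 in the authors' deposited table, where 1 mitochondrial member was lower. With GC content centred, the cytosolic median was 0.74 and the difference of medians 0.85. At 1.5-fold 12 of 21 cytosolic members were higher and 2 of 16 mitochondrial ones lower. Of the 9543 genes that reached 5 CPM, 2855 passed 1.5-fold, 1660 higher and 1195 lower. At 4-fold 2 cytosolic members were higher, and 149 genes passed, 115 higher and 34 lower. A pseudocount of 5 left 716 genes past 2-fold, against 1158. Members past 2-fold numbered 6 to 9 in the cytosolic set over the other scalings, pseudocounts, filters and list changes. The cytosolic fold was the larger in 15 of 17 pairs, and in 13 of 15 with FARSB and PARS2 left out.

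No paired analysis was possible because each treatment has 1 library. No library was left out, and differences between cultures cannot be told apart from those between treatments. Depth limits the mitochondrial enzymes most: SARS2, PARS2 and VARS2 had 101, 100 and 114 estimated counts with CB-5083.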
